A study of Glycine max with 15 samples.

Results

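A set of 125 soybean genes stood far below control in all 4 treatments of the series, out of 54175 gene IDs listed in each deposited table. The members were chosen by the measured expression values themselves, so their low levels are a description and not a finding. Expression was given in FPKM, which scales fragment counts by transcript length and by the size of the library. For each gene and table the log2 ratio of (treated FPKM + 1) to (control FPKM + 1) was taken. A gene was a member when its control level was at least 1 FPKM and its log2 ratio was -1.5 or less in every table. A limit of 200 genes was set and not reached. In all, 28736 genes met the control minimum and are called eligible genes here, and the members made up 0.435% of them.

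The material was labelled seedling, from Glycine max cultivar Williams 82 at 10 days of age and the vegetative stage V1, watered with the compounds. The treated groups were Pcz (5 mM propiconazole), Pcz-lowBL (propiconazole together with 10 nM brassinolide), Pcz-BL-1h (propiconazole, followed by 1 mM brassinolide for 1 h) and then Pcz-BL-8h (propiconazole and 8 h of 1 mM brassinolide), and they were set against a mock-treated control. Propiconazole was at 5 mM throughout. Doses are printed as labelled, but the mM values are unusually high for these compounds, and whether a smaller unit was meant could not be settled. Each of the 5 groups had 3 libraries, but the files hold a single pooled level per group in a table, so no spread between libraries can be shown. All treated groups carried propiconazole, and none had brassinolide alone or propiconazole followed by a mock addition. In the groups given brassinolide the part of each compound in the low levels therefore cannot be told apart. In Pcz propiconazole was the only compound labelled. The same control libraries serve all tables. The sources used here give neither the depth of a library nor whether replicate libraries were made from different plants.

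Sheet names serve as the names of the tables, and the table Pcz-BL holds the group Pcz-lowBL. In the text, low brassinolide stands for that table, and 1 h and 8 h of high brassinolide for the tables Pcz-BL-1h and Pcz-BL-8h. The headers inside these 3 tables name other groups: Pcz-BL-1h in the table Pcz-BL, Pcz-BL-8h in the table Pcz-BL-1h, and Pcz-BL in the table Pcz-BL-8h. Membership is the same under either reading, because the rule treats the 4 tables alike, but every statement on 1 of those 3 tables depends on the sheet name being right.

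Brassinosteroids are plant steroid hormones made through a chain of enzymes that includes several cytochrome P450s. In Arabidopsis they are sensed at the cell surface by the receptor kinase BRI1, whose signal lets transcription factors of the BZR1 family act in the nucleus. The pathway is known for promoting cell elongation in seedlings, and it also represses genes for the synthesis of its own hormone. Propiconazole is a triazole fungicide that blocks P450 enzymes and is used as an inhibitor of brassinosteroid synthesis, and brassinolide is a highly active hormone of the class. None of the 54175 IDs matched the reference gene table used here, so the members are given by ID, with no gene name, function or sequence, and the seedling label was not checked against marker genes. In RNA from whole tissue, fewer cells of a type and less RNA per cell cannot be told apart.

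Across the members the ratio was lowest in the table of the inhibitor alone. The median log2 ratio of the 125 genes was -2.94 with the inhibitor alone, -2.18 with low brassinolide, and -2.13 and -2.14 after 1 h and 8 h of high brassinolide. Over all eligible genes the medians were -0.05, -0.15, -0.17 and -0.20 in the same order. The middle 50% of members lay between -3.81 and -2.30 with the inhibitor alone and between -2.77 and -1.76 with low brassinolide. After high brassinolide they lay between -2.46 and -1.82 at 1 h and between -2.75 and -1.73 at 8 h. With the inhibitor alone 75 members were at least 10-fold below control in FPKM, while 34 were with low brassinolide, 25 after 1 h and 37 after 8 h of high brassinolide. The matching share of eligible genes was not computed, so nothing is read from these counts. The lower median is shared with other genes: over every eligible gene at -1.5 or less in a table, members or not, it was -2.14 with the inhibitor alone (2968 genes), -1.997 with low brassinolide (1884), -1.84 at 1 h (1406) and -1.91 at 8 h (2393).

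**Figure D1:**
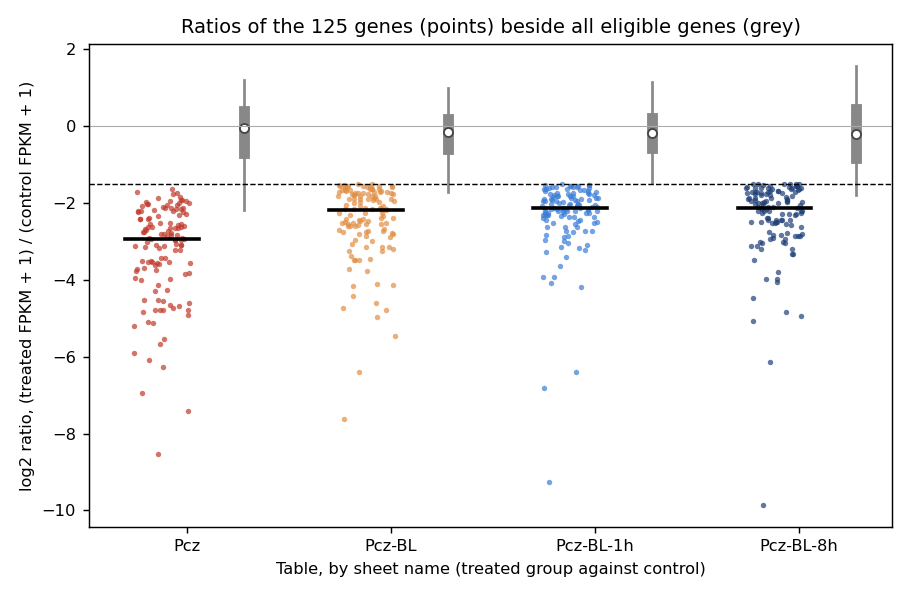
Log2 ratio of treated to control FPKM, with 1 FPKM added to both, for each of the 125 members (points, black bar at the median) in the 4 tables, beside all eligible genes (grey: thin line from the 5th to the 95th percentile, thick line the middle 50%, circle the median). All points lie under the dashed line at -1.5, as the rule requires, and the median is lowest in Pcz, at -2.94.

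The authors' test called nearly all members lower. With test status OK and a q-value of 0.05 or less, 119 members were called lower in the authors' deposited table for the inhibitor alone and 120 in each of the other 3. Over all tested genes 28.4% were called lower with the inhibitor alone, 22.8% with low brassinolide, and 26.5% and 30.7% after 1 h and 8 h of high brassinolide. The contrasts are those of the rule, so nothing is read from the members' counts. In all, 114 members were called lower in every table, and the matching share over all tested genes was not computed. Depending on the table, 109 to 115 members carried the smallest q-value in it, and the share of all tested genes that did was not computed either. A standard error was derived by dividing the log2 fold change, computed from the deposited FPKM, by the test statistic in the authors' deposited tables, and taking its size. Its median was 0.404 for members with the inhibitor alone, 0.506 with low brassinolide, 0.342 at 1 h and 0.479 at 8 h. Over all tested genes it was 0.391, 0.493, 0.376 and 0.505 in the same order.

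The members held a larger part of the control transcriptome than of the treated ones. They held 0.344% of the summed FPKM of all genes with the inhibitor alone, against 3.52% in control. With low brassinolide they held 0.838%, against 3.44% in control. After 1 h of high brassinolide the share was 0.937%, against 3.44% in control, and after 8 h it was 0.581%, against 3.43% in control. These shares also depend on the total over all genes, which differed between groups. It was 575277 FPKM with the inhibitor alone, 491555 with low brassinolide, 538105 at 1 h and 710735 at 8 h. In control it was 677073 to 824749 FPKM. The members' own sum was 4122 FPKM with low brassinolide and 4126 at 8 h. The same control libraries gave a members' sum of 28215 FPKM in the table with low brassinolide and 23226 in that for 8 h. The control totals there were 819112 and 677073 FPKM. The tables were scaled separately, so FPKM sums are not compared between them. The 5 members with the highest control level held 56.4% to 57.9% of the members' control FPKM. Without them the treated shares were 0.245%, 0.508%, 0.531% and 0.336% in the same order, against 1.48% to 1.499% in control.

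**Figure D2:**
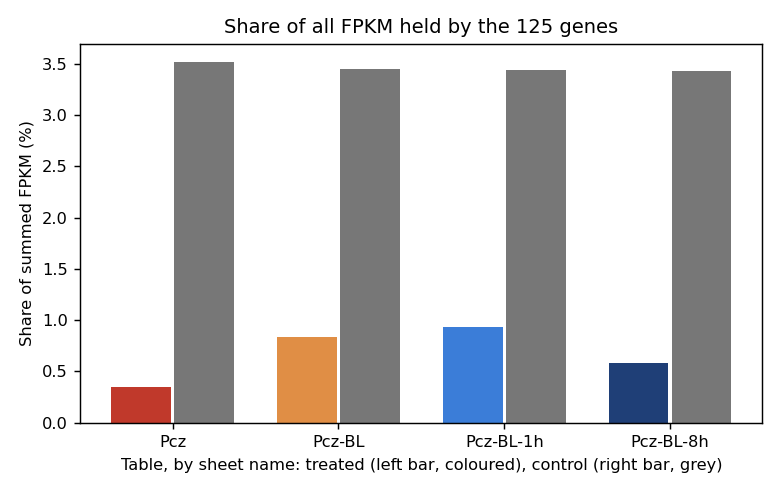
Share of the summed FPKM of all genes held by the 125 members in each table, as a percentage, in the treated group (coloured bar, left) and in control (grey bar, right). The treated groups stand between 0.344% and 0.937% and control at 3.43% to 3.52% in every table.

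Among the most abundant members, 6 had a mean control level of 1000 FPKM or more. Glyma19g01050 (chromosome 19, 738803 to 744963) had 47.8 FPKM with the inhibitor alone, 408 with low brassinolide, 508 after 1 h and 142 after 8 h of high brassinolide, against 4437 to 6029.9 FPKM in control. Glyma05g08590 (chromosome 5, 8432929 to 8439376) had 8.21 FPKM with the inhibitor alone, 263 with low brassinolide, 407 after 1 h and 154 after 8 h of high brassinolide, against 2438 to 3388 FPKM in control. Both were lowest under the inhibitor alone, highest among the treated groups after 1 h of high brassinolide and lower again at 8 h, and every treated value lay below every control value. With the inhibitor alone Glyma19g01050 had a log2 fold change of -6.98, computed from the FPKM without an added value, and a standard error of 2.48, a wide error for its size. Its q-value in the authors' deposited table was 0.0103. The genome build of these and all other coordinates here is not given in the sources used.

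Another pair of abundant members ran close to each other. Glyma10g32080 (chromosome 10, 40524468 to 40527468) had 91.1 FPKM under the inhibitor alone, 322 FPKM when low brassinolide was added, and 563 and 512 FPKM 1 h and 8 h after high brassinolide, against 2351 to 3135 FPKM in control. Glyma20g35530 (chromosome 20, 43824051 to 43827039) had 41.3 FPKM under the inhibitor alone, 187 FPKM when low brassinolide was added, and 257 and 252 FPKM 1 h and 8 h after high brassinolide, against 923 to 1171 FPKM in control. Their log2 ratios were -5.09 and -4.79 with the inhibitor alone, -3.14 and -2.58 with low brassinolide, -2.35 and -2.13 at 1 h, and -2.20 and -1.87 at 8 h. Both stood nearest to control in the high-brassinolide tables. Glyma16g26130 (chromosome 16, 30309191 to 30311593) had 126 FPKM with the inhibitor alone, 479 with low brassinolide, 704 after 1 h and 926 after 8 h of high brassinolide, against 2647 to 3220.1 FPKM in control. Its level was higher in each successive table, and at -1.51 its ratio after 8 h was close to the limit of the rule.

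The remaining member of the 6 ran the other way. Glyma04g35130 (chromosome 4, 41476381 to 41481758) had 296 FPKM with the inhibitor alone, 153 with low brassinolide, 1.40 after 1 h and 0.316 after 8 h of high brassinolide, against 1216 to 1482 FPKM in control. Its log2 ratio was -9.27 at 1 h and -9.85 at 8 h of high brassinolide, against -2.17 with the inhibitor alone and -3.26 with low brassinolide. It was the only member lower by 1 or more in both high-brassinolide tables than in both others, and its range over the 4 tables, 7.69, was the widest of the 125. The tables list a second gene, Glyma04g35140, over the same interval at 0 FPKM in every group. All expression listed for the interval therefore stands under Glyma04g35130. Whether its fragments came from that gene alone was not tested.

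**Figure D3:**
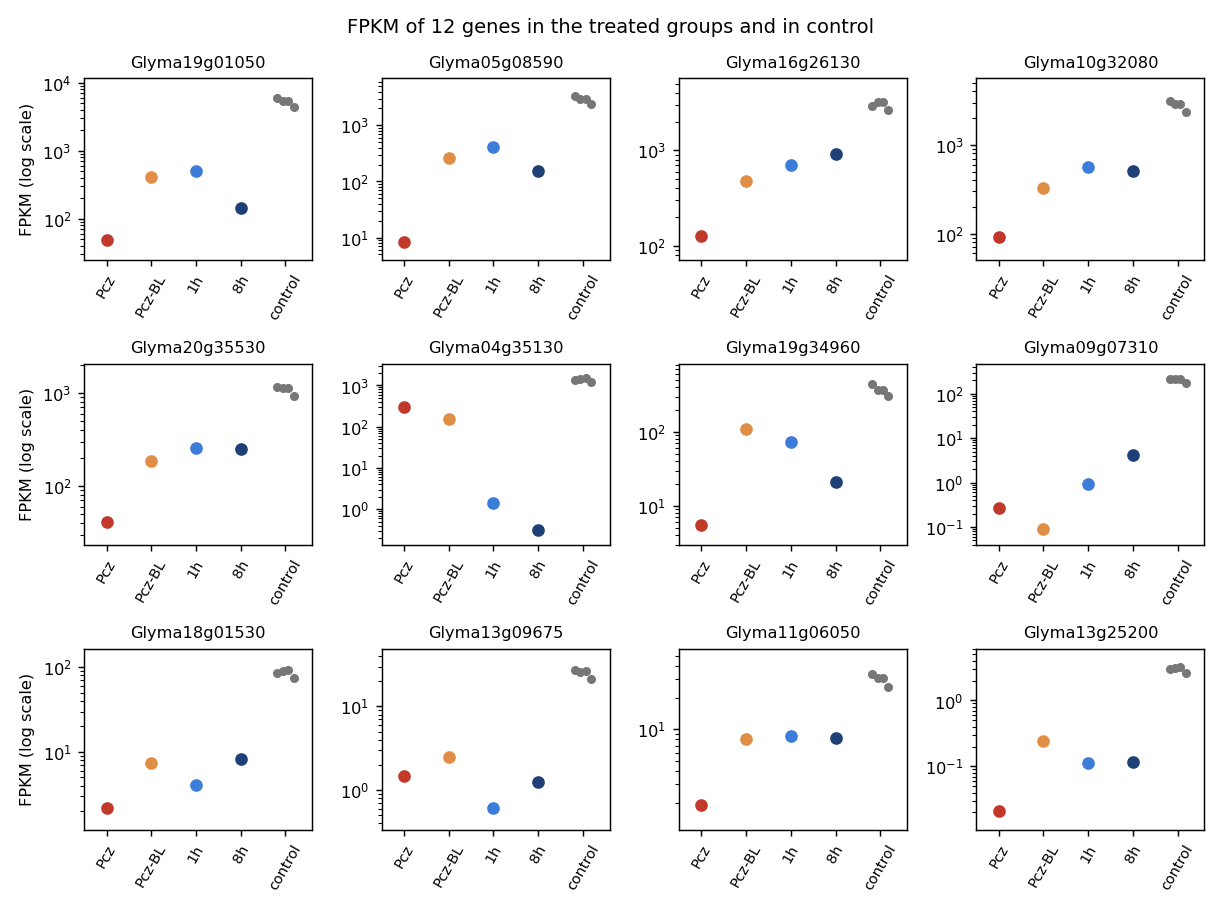
FPKM, on a log scale with its own range in each panel, of 12 members in Pcz, Pcz-BL, 1 h and 8 h of high brassinolide (coloured points, 1 pooled value each) and in control (grey points, 1 value per table from the same libraries). All 12 lie below control in all treated groups, Glyma04g35130 is lowest in the high-brassinolide groups, and 9 of the others are lowest in Pcz.

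The 6 members with the lowest ratios over all tables, ranked by the largest of their 4 log2 ratios, included less abundant genes as well. Glyma16g26430 (chromosome 16, 30540073 to 30540183), a locus of only 111 bp, was listed at 0 in all 4 treated groups and at 69.3 to 83.5 FPKM in control. The authors' tables give it the status NOTEST throughout, so no test stands behind these zeros. Glyma09g07310 (chromosome 9, 6157087 to 6157613) had 0.271 FPKM under the inhibitor alone, 0.0886 FPKM when low brassinolide was added, and 0.915 and 4.21 FPKM 1 h and 8 h after high brassinolide, against 173 to 215 FPKM in control. Its log2 ratios ran from -7.62 to -5.06, yet it was not called lower in the authors' deposited tables for the inhibitor alone (q = 0.0796) and for low brassinolide (q = 0.392). Glyma18g01530 (chromosome 18, 829627 to 830225) had 2.17 FPKM with the inhibitor alone, 7.34 with low brassinolide, 4.11 after 1 h and 8.28 after 8 h of high brassinolide, against 74.9 to 91.7 FPKM in control. Glyma13g09675 (chromosome 13, 11235025 to 11235807) had 1.47 FPKM under the inhibitor alone, 2.51 FPKM when low brassinolide was added, and 0.607 and 1.25 FPKM 1 h and 8 h after high brassinolide, against 21.5 to 27.0 FPKM in control. Of this pair the first was lowest with the inhibitor alone and the second after 1 h of high brassinolide. Glyma19g01050 and Glyma05g08590, described with the abundant genes, completed the 6.

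Next, the brassinolide tables were set against the inhibitor alone. Differences were taken between the log2 ratios of the tables, which share their control libraries and were scaled separately, and they carry no p-value. With low brassinolide 97 of the 125 members had a higher ratio than with the inhibitor alone, with a median difference of 0.64. After 1 h of high brassinolide 98 did, with a median difference of 0.66, and after 8 h 102 did, with a median of 0.59. How many other eligible genes had a higher ratio was not counted, so these 3 counts are not read as particular to the members. The median difference over all eligible genes was -0.09 with low brassinolide, and -0.12 and -0.07 at 1 h and 8 h. The rule keeps every member at -1.5 or below in all tables, so a member could stand closer to control only up to that limit.

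A 2-fold difference, 1 or more on the log2 scale, was seen in fewer members. With low brassinolide 40 members (32.0%) were higher by that much than with the inhibitor alone and 3 were lower, against 8.07% of eligible genes higher and 6.31% lower. After 1 h of high brassinolide 48 (38.4%) were higher and 1 was lower, against 16.7% and 13.6% of eligible genes. After 8 h 50 (40.0%) were higher and 4 were lower, against 21.9% and 22.9%. A closer yardstick is the 2843 other eligible genes that were also at -1.5 or less with the inhibitor alone. Of these, 38.0% were higher by 1 or more with low brassinolide, 73.0% at 1 h and 76.1% at 8 h, with median differences of 0.75, 1.67 and 2.05. Genes that came closer to control than the limit in any table are in that group and not among the members, so the rule itself sets part of this gap.

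Among the brassinolide tables themselves members differed in both directions. For 1 h of high minus low brassinolide the median difference was 0.07, with the middle 50% of members between -0.44 and 0.55. For 8 h minus low it was 0.05, with the middle 50% between -0.47 and 0.58, and for 8 h minus 1 h it was 0.04, between -0.39 and 0.30. Over the other eligible genes at -1.5 or less in the table subtracted, which the limit of the rule does not bind elsewhere, the medians were 1.56, 2.11 and 0.39.

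**Figure D4:**
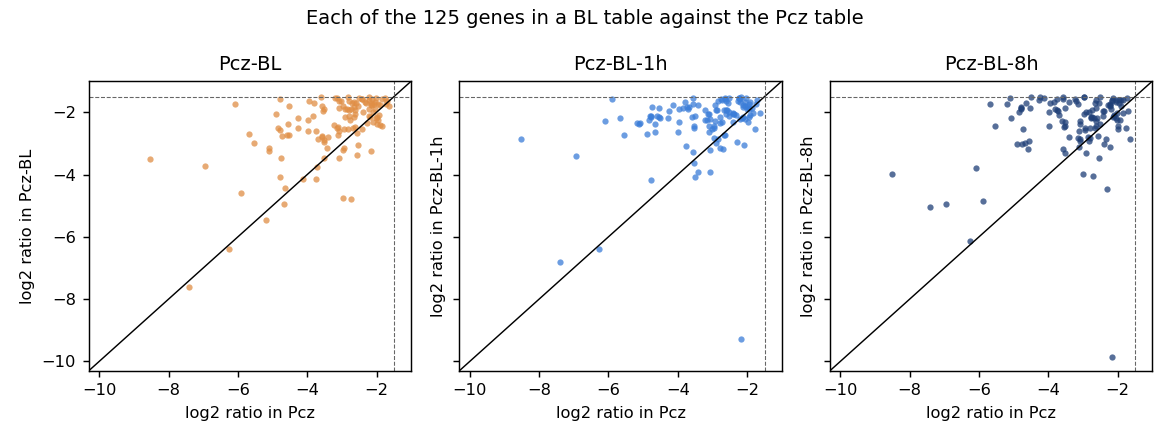
Log2 ratio to control of each of the 125 members in a brassinolide table (vertical axis; low dose, 1 h and 8 h from left to right) against its log2 ratio in Pcz (horizontal axis), with the line of equal values and dashed lines at the limit of -1.5. Of the points, 97, 98 and 102 lie above the line, a count not made for other eligible genes. The isolated point at the lower right of the 1 h and 8 h panels is Glyma04g35130.

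The members took several shapes over the tables, and the genes given as examples of each were picked after their values had been seen, other than Glyma19g34960. How many other eligible genes took each shape, or were lowest in each table, was not counted. No shape is therefore read as particular to the members. In 31 members all 3 brassinolide tables stood at least 1 above the inhibitor alone. Glyma19g34960 (chromosome 19, 42557788 to 42561603), with a range of 4.36, had 5.57 FPKM with the inhibitor alone, 108 with low brassinolide, 74.0 after 1 h and 20.8 after 8 h of high brassinolide, against 302 to 448 FPKM in control. Glyma01g00500 (chromosome 1, 285991 to 288741) had 5.70 FPKM with the inhibitor alone, 56.2 with low brassinolide, 35.4 after 1 h and 23.3 after 8 h of high brassinolide, against 197 to 238 FPKM in control. Both were highest among the treated groups with low brassinolide and lower at 1 h and again at 8 h of the high dose. Glyma06g13770 (chromosome 6, 10899307 to 10901983) had 1.82 FPKM under the inhibitor alone, 20.6 FPKM when low brassinolide was added, and 29.8 and 34.0 FPKM 1 h and 8 h after high brassinolide, against 116 to 143 FPKM in control. It was instead higher in each successive table.

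In 9 members both high-brassinolide tables stood at least 1 above both the inhibitor alone and low brassinolide. Glyma12g06730 (chromosome 12, 4591540 to 4594075) had 0.783 FPKM with the inhibitor alone, 0.470 with low brassinolide, 11.7 after 1 h and 15.1 after 8 h of high brassinolide, against 52.1 to 64.2 FPKM in control. Glyma12g01700 (chromosome 12, 1034689 to 1036355) had 4.48 FPKM under the inhibitor alone, 5.42 FPKM when low brassinolide was added, and 21.3 and 33.7 FPKM 1 h and 8 h after high brassinolide, against 113 to 138 FPKM in control. In this pair the level with low brassinolide was close to that of the inhibitor alone, and the difference lay between the low- and high-dose tables. The others were Glyma20g25520, Glyma13g32380, Glyma09g02460, Glyma19g33440, Glyma02g16970, Glyma02g08890 and Glyma11g12900.

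The lowest of the 4 ratios was that of the inhibitor alone in 70 members, of low brassinolide in 20, of 1 h in 16 and of 8 h of high brassinolide in 19. Few of those lowest in a brassinolide table stood at least 1 below all other tables. Glyma04g40000 (chromosome 4, 46149636 to 46151541) had 15.5 FPKM with the inhibitor alone, 2.90 with low brassinolide, 20.7 after 1 h and 22.2 after 8 h of high brassinolide, against 87.9 to 109 FPKM in control. Glyma06g14850 (chromosome 6, 11635851 to 11637881) had 14.7 FPKM with the inhibitor alone, 3.51 with low brassinolide, 20.2 after 1 h and 34.0 after 8 h of high brassinolide, against 98.3 to 122 FPKM in control. These were the only members to do so with low brassinolide. Glyma13g30463 (chromosome 13, 33098063 to 33102062) had 10.8 FPKM under the inhibitor alone, 19.8 FPKM when low brassinolide was added, and 7.64 and 1.55 FPKM 1 h and 8 h after high brassinolide, against 55.1 to 66.5 FPKM in control. It was the only member to do so at 8 h, and no member did at 1 h.

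Other members held nearly the same ratio in all tables. The range over the 4 log2 ratios was 0.5 or less in 12 members and 1 or less in 45. Its median was 1.18 over the members and 1.23 over all eligible genes. Glyma01g03260 (chromosome 1, 2784884 to 2792465) had 263 FPKM with the inhibitor alone, 291 with low brassinolide, 299 after 1 h and 194 after 8 h of high brassinolide, against 757 to 916 FPKM in control. Glyma16g28310 (chromosome 16, 32286641 to 32292021) had 41.7 FPKM under the inhibitor alone, 47.9 FPKM when low brassinolide was added, and 51.2 and 43.8 FPKM 1 h and 8 h after high brassinolide, against 136 to 165 FPKM in control. Their ranges were 0.35 and 0.30, so the tables with brassinolide at either dose stood close to the inhibitor alone. The 3 narrowest ranges belonged to Glyma14g34190 (0.21), Glyma13g25200 (chromosome 13, 28453463 to 28459040) (0.26) and Glyma16g26430 (0.27). Their treated levels were only 0 to 0.242 FPKM, so their ratios were set mostly by the control level and the added 1 FPKM.

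Some members rested on very low treated values. In all, 6 were listed at 0 in at least 1 treated group, and 2 of these, Glyma16g26430 and Glyma14g34190 (chromosome 14, 42608461 to 42608671), in all 4. Glyma14g34190 was listed at 1.89 to 2.35 FPKM in control and had the status NOTEST in every table. Glyma02g08890 (chromosome 2, 6881086 to 6881308) had 0 FPKM with the inhibitor alone, 0 with low brassinolide, 4.21 after 1 h and 4.02 after 8 h of high brassinolide, against 13.8 to 16.9 FPKM in control. It was not called lower in the authors' deposited table for 8 h (q = 0.0895). Glyma19g43861 (chromosome 19, 49411352 to 49412707) had 0 FPKM under the inhibitor alone, 0.772 FPKM when low brassinolide was added, and 0.911 and 0 FPKM 1 h and 8 h after high brassinolide, against 3.86 to 5.23 FPKM in control. It lacked a call in the authors' deposited tables for low brassinolide (q = 0.385) and 1 h (q = 0.324).

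Of the 123 members that were tested in all 4 tables, 9 lacked a call, 5 of them in 1 table and 4 in 2. Besides Glyma09g07310, Glyma02g08890 and Glyma19g43861 these were Glyma02g34981, Glyma09g02460, Glyma09g39430, Glyma19g00730, Glyma18g52240 and Glyma18g04351. The largest standard error among the missing calls was that of Glyma09g02460 (chromosome 9, 1651968 to 1658743) with the inhibitor alone, 3.31 on a log2 fold change of -9.64, both computed as for Glyma19g01050. Its q-value in the authors' deposited table was 0.244. Not every missing call had a wide error. With the inhibitor alone Glyma02g34981 had an error of 0.334 on a log2 fold change of -4.22, and the authors' q-value was 0.0572. The derived error alone therefore does not tell which members were called. The treated level behind a missing call was at most 4.02 FPKM.

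Members were more abundant in control than eligible genes as a whole. Their median control level was 47.4 FPKM, against 6.83 FPKM over all eligible genes, and the middle 50% lay between 15.8 and 125 FPKM. The share of eligible genes that were members was 0.122% (22 of 18093) at 1 to 10 FPKM, 0.699% (68 of 9730) at 10 to 100 FPKM, 3.61% (29 of 803) at 100 to 1000 FPKM and 5.45% (6 of 110) at 1000 FPKM or more. Part of this gradient is set by the rule, which cannot be met by a gene under 1.83 FPKM in control because 1 FPKM is added to both groups. Without that addition 243 genes met the limit, and the shares were 0.663%, 0.894%, 3.74% and 5.45% from the lowest to the highest class. The order of the classes was the same and the gap between the outer ones smaller. With the inhibitor alone the more abundant members also had the lower ratio, with class medians of -2.31, -3.08, -3.52 and -4.94. With low brassinolide the order was the same, at -1.86, -2.16, -2.30 and -3.20. It was broken by the class from 100 to 1000 FPKM at 1 h of high brassinolide (-2.04, -2.16, -1.97 and -2.61) and at 8 h (-2.14, -2.27, -1.91 and -3.08). The added 1 FPKM also limits how low a ratio the least abundant class can reach.

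**Figure D5:**
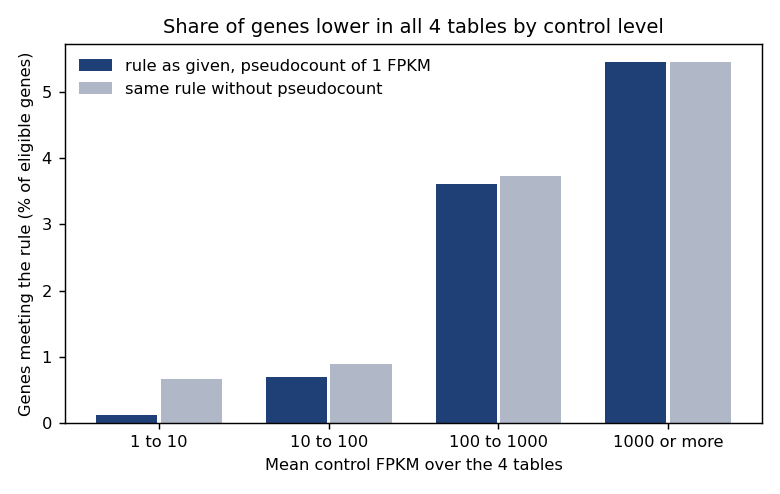
Percentage of eligible genes that met the rule in 4 classes of mean control FPKM, with 1 FPKM added to both groups as the rule states (dark) and without (light). Over the classes from low to high the share is 0.122% to 5.45% with the addition and 0.663% to 5.45% without it.

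The positions of the genes were not used by the rule. Members lay on all 20 chromosomes, with 1 more, Glyma2227s50, on a scaffold. Per chromosome they numbered from 2 (chromosomes 3, 7 and 17) to 12 (chromosome 13), or 0.136% to 0.752% of the eligible genes there, the highest share being on chromosome 19. Members seldom lay side by side. Only Glyma10g04396 (chromosome 10, 3386327 to 3386837) and Glyma10g04403 (chromosome 10, 3387444 to 3388649) were next to each other, with 606 bp between them. The first had 0.761 FPKM with the inhibitor alone, 2.47 with low brassinolide, 2.34 after 1 h and 0.553 after 8 h of high brassinolide, against 9.74 to 11.8 FPKM in control. The second had 0.526 FPKM with the inhibitor alone, 1.44 with low brassinolide, 1.05 after 1 h and 0.397 after 8 h of high brassinolide, against 5.16 to 6.23 FPKM in control. Both were lower with the inhibitor alone and at 8 h than with low brassinolide and at 1 h.

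The genes next to members were read in the same way. Of 144 eligible flanking genes that neither were members nor overlapped one, 8 (5.56%) were at a log2 ratio of -1 or less in all tables, against 539 of the 28736 eligible genes (1.88%), which include the members. The median log2 ratio of these flanking genes was -0.29 with the inhibitor alone, -0.34 with low brassinolide, and -0.26 and -0.43 at 1 h and 8 h. No test was made of this difference.

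The loci of members were shorter at the median. The distance from start to end was 2957 bp, against 4134 bp over eligible genes, and 15.2% of members (19) spanned under 1000 bp, against 5.04% of eligible genes. By control class the order turned round, with members shorter under 100 FPKM and longer above it. At 1 to 10 FPKM the medians were 2786 bp for members and 4258 bp for eligible genes, and at 10 to 100 FPKM 2873.5 bp and 4029 bp. At 100 to 1000 FPKM they were 3475 bp and 2875 bp. At 1000 FPKM or more, with only 6 members, they were 4189.5 bp and 1955.5 bp. For 5 members the locus overlapped that of another gene: Glyma04g35130, Glyma11g34795, Glyma06g07270, Glyma15g01940 and Glyma01g04090. Their values are uncertain to the extent that fragments were shared with the other gene. The library kit kept strand, but whether the counting used it is not given in the sources used here.

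At the limit of the rule, Glyma04g02210 (chromosome 4, 1522095 to 1524613) and Glyma11g06050 (chromosome 11, 4273010 to 4274999) were just inside, with largest log2 ratios of -1.506 and -1.505. Just outside were Glyma01g39530 (-1.497) and Glyma06g15321 (-1.492), both at their largest ratio with the inhibitor alone. Glyma11g06050 had 1.92 FPKM with the inhibitor alone, 8.10 with low brassinolide, 8.57 after 1 h and 8.32 after 8 h of high brassinolide, against 25.4 to 33.7 FPKM in control. Glyma01g39530 had 91.6 FPKM under the inhibitor alone, 54.4 FPKM when low brassinolide was added, and 67.8 and 70.4 FPKM 1 h and 8 h after high brassinolide, against 207 to 260.3 FPKM in control. The control level of a member differed between the tables by a factor of 1.22 at the median and of 1.69 at most, although the control libraries were the same.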

How the data were processed

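The authors deposited 4 full tables and 4 short lists of genes. The levels are in FPKM, with 1 value for a group in each deposited table and no value per library. The column names are those of Cuffdiff, per the file headers. Neither its version nor the aligner, build or annotation is named in the sources used here. The test statistic is a score deposited by the authors, and the p-values and q-values are theirs. The short lists hold the authors' log2 fold changes. That column of the full tables was not used, because it holds spreadsheet errors where a group is at 0, so log2 fold changes were computed from the deposited FPKM.

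The rule, medians, shares and distances were computed in Python 3.11.15 with pandas 2.3.3 and numpy 2.4.6, and the selection was tested on simulated data. The only test is the authors' own. The members and gene lists were chosen with earlier results of these data known. The lists could not be applied, since 0 IDs matched the reference table (59048 genes, assembly Glycine_max_v4.0).

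Named genes are the 6 members with the lowest largest ratio, the 6 highest in control, the 3 widest and 3 narrowest ranges, those listed at 0 in 2 or more groups, the longest run of neighbours and those at the limit. Any other ID was chosen after its values were seen. Depth is unknown, so no interval that needs it is given.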

Additional observations from a re-analysis of the deposited data

How the results depend on the processing

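The number of genes meeting the rule depended on how it was set. It was 125 as reported, 228 with 0.1 FPKM added in place of 1, 243 with nothing added, 539 at a log2 ratio of -1 and 27 at -2. Chosen after seeing the data, the rule gave 285 genes when the Pcz-BL table was left out, and 369 genes when the Pcz-BL-8h table was. With each table centred on its median log2 ratio over the 22820 genes at 1 FPKM or more in the treated group and control of every table, a smaller set than the eligible genes (0.02 with the inhibitor alone, -0.14 with low brassinolide, -0.17 at 1 h and -0.11 at 8 h of high brassinolide) it gave 81, all of them members. With the mean of the 4 control columns 134 genes met it, 111 of them members. The median log2 ratio of the members with 0.1 FPKM added was -3.70 with the inhibitor alone, -2.45 with low brassinolide, -2.32 at 1 h and -2.48 at 8 h, and with nothing added -3.82, -2.49, -2.35 and -2.53. Centred, it was -2.04 with low brassinolide and -1.96 at 1 h. Without the 5 members highest in control the share of summed FPKM was 0.245%, 0.508%, 0.531% and 0.336% in the treated groups, against 1.48%, 1.499%, 1.499% and 1.497% in control. By FPKM 7 members were lowest at 1 h, and by ratio to control 16. Members with another member within 100 kb numbered 6, against 2 with one as the next gene. The causes were not tested beyond what each setting changes. In all, 28 recomputed values, the count of 134 genes among them, stayed within the margin used for calling a value moved. That margin also took in 157 genes without the Pcz table and 176 without the Pcz-BL-1h table, against 125 as reported.

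No paired analysis was possible because the files hold 1 pooled value per group, and for the same reason no library could be left out. Reading the tables by their column headers leaves the 125 genes as they are and moves the values of 3 tables to other treatments.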

Other observations

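The short lists deposited by the authors hold genes with a log2 fold change of at least 2 in size. They come from the same contrasts as the rule, so their overlap with the members was largely set in advance. Nothing is read from the overlap counts that follow, and each full table lists 54175 gene IDs. Of the 125 members, 101 were on the list of 3448 genes for the inhibitor alone and 81 on that of 2478 genes for low brassinolide. For high brassinolide 81 were on the list of 2915 genes at 1 h and 76 on that of 3981 genes at 8 h. There were 82 genes on all 4 lists, 35 of them lower in all and 26 higher in all. Members made up 33 of the 35. The other two, Glyma08g24420 and Glyma11g36127, had largest log2 ratios of -1.15 and -1.32 with 1 FPKM added. In all, 10 members were on none of the lists. The Pcz table also has a column without a name that holds 59 gene IDs. All 59 were on all 4 short lists and 31 were members, and the purpose of the column is not given in the sources used here. With the rule turned round, to a log2 ratio of 1.5 or more in all 4 tables at the same control minimum, 22 genes stood above control.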
